A study of Mus musculus with 9 samples.

Results

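The 10 genes described here are genes of brain endothelial cells and of the blood-brain barrier: Cldn5, Ocln, Tjp1, Pecam1, Cdh5, Sox17, Slc2a1, Mfsd2a, Abcb1a and Plvap. They were taken by name from the 55450 genes counted in dissected mouse substantia nigra, and all 10 passed the filter on low counts. Nigral RNA was sequenced 5 weeks after bilateral stereotaxic delivery of a Cre-inducible (FLEX) lentiviral vector, in 3 groups of 3 libraries. The CTR libraries came from CX3CR1-CreERT2 mice that received a GFP vector, which the methods describe as destabilized GFP. The CX3 libraries came from the same line with a vector for mutant human alpha-synuclein under the Ef1a promoter, meant for expression in microglia. The DAT libraries came from DAT-Cre mice with the same alpha-synuclein vector, meant for expression in dopaminergic neurons. Injection was at 8 weeks of age by the study's results, while the methods name purchased males of 9 weeks. Tamoxifen was described for CX3CR1-CreERT2 mice and not for DAT-Cre mice, so that Cre line, tamoxifen and vector all differed between DAT and CTR and cannot be told apart there. CX3 and CTR shared the Cre line, and CX3 and DAT shared the vector. The labels do not say how many animals gave a library, so the p-values measure the spread between these libraries, which may be technical.

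The capillaries of the brain are lined by endothelial cells sealed by tight junctions, with little vesicle traffic across the cell. Nutrients pass through dedicated transporters, and lipophilic compounds are pumped back into the blood. Wnt ligands from neural cells hold the endothelium in this barrier state through beta-catenin. Most of the genes here are largely endothelial in brain tissue, whereas Tjp1 and Slc2a1 are also transcribed in astrocytes and other cells.

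Reads counted on genes numbered 21592817 to 39475428 per library, and 3 counts, the smallest signal taken as countable, equalled 0.0779 to 0.151 CPM (read counts scaled per 1000000 reads of the normalized library size), for counting error only. The reverse strand held 49.8% to 49.9% of the strand counts in each library, so the counts do not separate a gene from an antisense neighbour. Th, the enzyme that defines dopaminergic neurons, had 68.0 to 103 CPM in the 9 libraries. The squared difference in counts between libraries was 1.44 to 1.53 times that of random sampling in CTR and 1.62 to 3.19 times in CX3. In DAT it was 1.77 times between A and C, and 5.38 and 4.63 times in the pairs that hold DAT B, which stood apart and was the shallowest library. Log2 fold changes were related to the GC content of the transcript in DAT against CTR (Spearman's rho 0.35 across 20892 genes, which are not independent) and hardly in CX3 against CTR (0.03).

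In CX3 against CTR, 5 of the 10 genes rose and 3 fell at an adjusted p of 0.05, where 30.5% of the 20892 genes tested were called, 14.0% higher and 16.5% lower. Cldn5, Sox17, Ocln, Plvap and Abcb1a rose, and Tjp1, Slc2a1 and Mfsd2a fell. In DAT against CTR, 8 of the 10 rose and 0 fell, against 32.0% of all genes higher, 27.9% lower and 59.9% called in either direction. The 2 that were not called were Mfsd2a and Tjp1. In CX3 against DAT, 2 genes were higher in CX3 and 6 were lower, against 27.6% and 31.3% of all genes and 58.9% in either direction. With a fold of at least 1.5 as a further condition, the members called numbered 2, 4 and 3 in the 3 comparisons, against 7.95%, 29.7% and 29.0% of all genes. The members' median log2 fold changes were 0.12, 0.37 and -0.35, while those of all genes tested were -0.00333, -0.00381 and 0.0103. Without DAT B, 8 members were called in DAT against CTR and 9 in CX3 against DAT. The comparisons against CTR share their control libraries. In whole tissue, a change in the number of endothelial cells and a change in RNA per cell cannot be told apart.

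**Figure D1:**
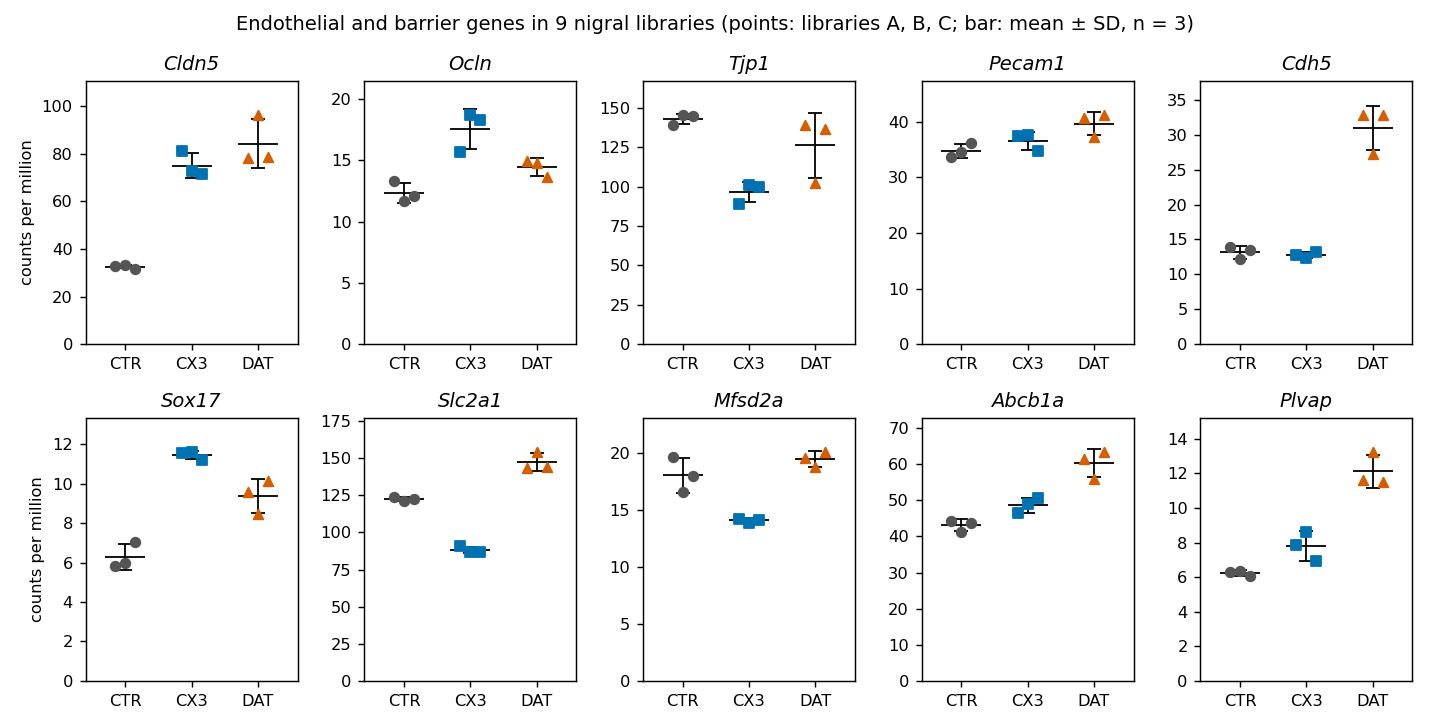
CPM of the 10 genes in each of the 9 libraries, by group, with the mean and SD of 3 libraries; each panel has its own axis from 0. Cldn5 lies near 33 CPM in CTR and at 71.4 to 96.2 CPM in the CX3 and DAT libraries, Slc2a1 is lowest in CX3, and Cdh5 is high in DAT.

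The start regions of 6 of the 10 genes were held by the RefSeq promoter table for GRCm38.p6. The 250 bases before the start are shown for 2 genes that rose in CX3, Cldn5 and Ocln, and for 1 that fell there, Mfsd2a, each with a RefSeq start equal to the GENCODE start. Capitals mark the letters of 6 short motifs on either strand: GGAAG (ETS factors), ACAAT (SOX factors), CTTTG (TCF/LEF factors of the Wnt pathway), TAAACA (forkhead factors), CCAAT (the CCAAT box) and GGGCGG (SP and KLF factors).
Cldn5, chr16:18776597-18776846, plus strand: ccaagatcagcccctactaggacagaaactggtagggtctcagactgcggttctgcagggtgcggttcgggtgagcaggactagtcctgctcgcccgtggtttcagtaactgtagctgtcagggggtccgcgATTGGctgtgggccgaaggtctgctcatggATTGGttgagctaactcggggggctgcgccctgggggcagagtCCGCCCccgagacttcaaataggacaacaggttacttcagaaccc
Ocln, chr13:100552719-100552968, minus strand: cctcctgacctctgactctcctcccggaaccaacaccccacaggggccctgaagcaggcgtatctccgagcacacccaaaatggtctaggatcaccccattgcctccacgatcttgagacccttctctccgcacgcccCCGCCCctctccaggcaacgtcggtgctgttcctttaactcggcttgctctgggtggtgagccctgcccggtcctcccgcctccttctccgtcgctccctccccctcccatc
Mfsd2a, chr4:122961189-122961438, minus strand: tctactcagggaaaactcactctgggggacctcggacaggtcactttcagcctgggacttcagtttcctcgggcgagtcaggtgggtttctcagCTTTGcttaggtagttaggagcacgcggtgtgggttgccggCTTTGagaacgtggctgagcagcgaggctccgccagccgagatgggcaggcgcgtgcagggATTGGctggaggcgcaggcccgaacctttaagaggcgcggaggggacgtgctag

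The Cldn5 window held 2 CCAAT boxes and 1 GGGCGG, the Ocln window 1 GGGCGG, and the Mfsd2a window 2 CTTTG and 1 CCAAT box. Of the 32851 windows of this length in the table, 64.1% held GGAAG, 27.7% ACAAT, 48.6% CTTTG, 33.8% CCAAT and 32.7% GGGCGG, and 3952 windows held TAAACA. The motifs do not overlap in the 3 windows, and letters of this length are a description and no sign of binding.

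Among the junction genes, Cldn5 differed most from control in both groups. Cldn5 (claudin-5, ENSMUSG00000041378.2, 1 exon on GRCm38 chromosome 16 from 18776847 to 18778262, plus strand) encodes the claudin that predominates in the tight junctions of brain endothelium. It had 33.0, 33.2 and 31.8 CPM in CTR A, B and C, 81.0, 73.0 and 71.4 CPM in the CX3 libraries, and 78.2, 96.2 and 78.5 CPM in the DAT libraries. Every CX3 and DAT library lay above every CTR library, and the CX3 and DAT libraries overlapped. The level was 2.30-fold that of CTR in CX3 (log2 fold change 1.20, SE 0.08, adjusted p = 5.91e-08) and 2.57-fold in DAT (1.36, SE 0.08, adjusted p = 3.33e-09). When each library was corrected for transcript GC content, the DAT value fell to 0.89 (adjusted p = 1.03e-07). Between CX3 and DAT, Cldn5 was not called (-0.16, SE 0.07, approximate 95% interval -0.31 to -0.02, adjusted p = 0.0761). That difference turned to 0.21 in favour of CX3 with the GC correction (adjusted p = 0.0103). The GC content of Cldn5 is 60.5%, above that of 96.6% of the genes tested. Without CX3 A or without DAT A the difference was -0.20 in both cases, with adjusted p = 0.0472 and 0.0487, and it was -0.05 without DAT B.

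Ocln (occludin, ENSMUSG00000021638.12, chromosome 13 from 100496507 to 100552718, minus strand) encodes a membrane protein of the tight junction strand. It had 13.3, 11.6 and 12.1 CPM in CTR, 15.7, 18.7 and 18.3 CPM in CX3, and 14.9, 14.7 and 13.6 CPM in DAT. The 3 groups did not overlap, with CX3 on top. Ocln rose in CX3 (0.51, SE 0.08, adjusted p = 0.000292), and its rise in DAT was smaller (0.23, SE 0.08, adjusted p = 0.0298). The DAT call was lost without CTR B, CTR C or DAT A (0.17, 0.20 and 0.18, adjusted p = 0.167, 0.110 and 0.147) and with DESeq2 (adjusted p = 0.0727). The CX3 level exceeded that of DAT (0.28, SE 0.08, adjusted p = 0.00889), a call lost with the GC correction (0.15, adjusted p = 0.0992).

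Tjp1 (ENSMUSG00000030516.14, chromosome 7 from 65296165 to 65527781, minus strand) encodes zonula occludens-1, the scaffold that ties claudins and occludin to actin. It had 139, 145 and 145 CPM in CTR, 89.1, 101 and 99.6 CPM in CX3, and 139, 103 and 136 CPM in DAT. All CX3 libraries were below all others, and DAT B lay near the CX3 range while DAT A and DAT C lay within or near that of CTR. Tjp1 fell in CX3 (-0.57, SE 0.09, adjusted p = 0.000320) and was lower in CX3 than in DAT (-0.39, SE 0.09, adjusted p = 0.00208). In DAT against CTR it was not called (-0.18, SE 0.09, approximate 95% interval -0.35 to -0.000931, adjusted p = 0.105). That difference was -0.06 without DAT B and was called without DAT A (-0.28, adjusted p = 0.0207). Astrocyte markers were lower in sum in both groups: their summed level was 5673 to 5687 CPM in CTR, 3398 to 3654 in CX3 and 3624 to 3927 in DAT. Their median log2 fold change against CTR was -0.62 in CX3 and -0.11 in DAT. Of all genes, 30.5% and 59.9% were called in these comparisons. Of the 7 astrocyte markers, 6 were lower and 1 higher in CX3 than in CTR, and 3 were lower and 1 higher in DAT. The higher one was Slco1c1 in both groups, a gene also in the transporter list described below. The part of astrocytes in the Tjp1 levels was not tested.

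The genes of endothelial identity did not move alike. Pecam1 (CD31, ENSMUSG00000020717.19, chromosome 11 from 106654217 to 106750628, minus strand) encodes an adhesion molecule at endothelial cell borders. It had 33.6, 34.4 and 36.1 CPM in CTR, 37.3, 37.6 and 34.7 CPM in CX3, and 40.6, 37.2 and 41.1 CPM in DAT. CX3 overlapped both other groups. Pecam1 was not called in CX3 against CTR (0.07, SE 0.06, approximate 95% interval -0.04 to 0.18, adjusted p = 0.352). It rose in DAT by a small amount (0.19, SE 0.06, adjusted p = 0.00935). This call was lost with the GC correction (0.11, adjusted p = 0.136), and without CTR A, CTR B, DAT A or DAT C (0.15, 0.17, 0.16 and 0.16, adjusted p from 0.0589 to 0.0766).

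Cdh5 (VE-cadherin, ENSMUSG00000031871.9, chromosome 8 from 104101625 to 104144511, plus strand) encodes the cadherin of endothelial adherens junctions. It had 13.9, 12.1 and 13.5 CPM in CTR, 12.7, 12.3 and 13.3 CPM in CX3, and 32.8, 27.3 and 32.8 CPM in DAT. CTR and CX3 overlapped, and DAT stood far above both. Cdh5 was 2.36-fold higher in DAT than in CTR (1.24, SE 0.08, adjusted p = 1.01e-08) and 2.43-fold higher in DAT than in CX3 (CX3 against DAT -1.28, SE 0.08, adjusted p = 6.53e-09). In CX3 against CTR it was not called (-0.04, SE 0.08, approximate 95% interval -0.21 to 0.12, adjusted p = 0.739). Cdh5 and Pecam1 are both used to mark endothelial cells, and in DAT against CTR their folds were 2.36 and 1.14.

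Sox17 (ENSMUSG00000025902.13, chromosome 1 from 4490931 to 4497354, minus strand) encodes an endothelial transcription factor with a role in arterial differentiation. It had 5.81, 5.96 and 7.03 CPM in CTR, 11.6, 11.6 and 11.2 CPM in CX3, and 9.57, 8.45 and 10.1 CPM in DAT. The 3 groups did not overlap. Sox17 rose 1.83-fold in CX3 (0.87, SE 0.09, adjusted p = 7.40e-06) and 1.51-fold in DAT (0.59, SE 0.10, adjusted p = 0.000114), and it was higher in CX3 than in DAT (0.28, SE 0.09, adjusted p = 0.0140; 0.47 with the GC correction, adjusted p = 0.000578). It shares 16.8% of its exon bases with Gm37587 on the opposite strand, and reads there cannot be told apart.

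The transporters split between the groups. Slc2a1 (GLUT1, ENSMUSG00000028645.11, chromosome 4 from 119108711 to 119137983, plus strand) encodes the transporter that carries glucose across the barrier. It had 124, 121 and 122 CPM in CTR, 90.6, 87.0 and 86.8 CPM in CX3, and 143, 154 and 144 CPM in DAT. The groups did not overlap, with CX3 lowest and DAT highest. Slc2a1 fell to 0.719 of the CTR level in CX3 (-0.48, SE 0.04, adjusted p = 2.43e-06) and was 1.67-fold higher in DAT than in CX3 (CX3 against DAT -0.74, SE 0.04, adjusted p = 5.30e-09). The rise in DAT against CTR was called (0.26, SE 0.04, adjusted p = 0.000139) but not after the GC correction (0.05, adjusted p = 0.313). The astrocyte markers given with Tjp1 were lower in sum in CX3 and in DAT, and the part of astrocytes in the Slc2a1 levels was not tested.

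Mfsd2a (ENSMUSG00000028655.11, chromosome 4 from 122946850 to 122961188, minus strand) encodes the lysophospholipid transporter that brings docosahexaenoic acid into the brain and holds vesicle traffic low. It had 19.6, 16.6 and 18.0 CPM in CTR, 14.3, 13.9 and 14.2 CPM in CX3, and 19.6, 18.8 and 20.1 CPM in DAT. All CX3 libraries were below the others, while CTR and DAT overlapped. Mfsd2a fell in CX3 (-0.35, SE 0.07, adjusted p = 0.00135) and was lower in CX3 than in DAT (-0.47, SE 0.07, adjusted p = 4.47e-05), a difference of -0.24 with the GC correction (adjusted p = 0.00902). With the forward-strand counts alone the CX3 call was lost (-0.20, adjusted p = 0.116). DAT against CTR was not called (0.11, SE 0.07, approximate 95% interval -0.02 to 0.25, adjusted p = 0.169).

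Abcb1a (P-glycoprotein, ENSMUSG00000040584.8, chromosome 5 from 8660077 to 8748575, plus strand) encodes the main efflux pump of the barrier. It had 44.4, 41.3 and 43.6 CPM in CTR, 46.4, 48.9 and 50.6 CPM in CX3, and 61.5, 55.9 and 63.4 CPM in DAT. The groups did not overlap and followed the order CTR, CX3, DAT. Abcb1a rose 1.40-fold in DAT (0.49, SE 0.06, adjusted p = 5.49e-06), and CX3 was below DAT (-0.31, SE 0.06, adjusted p = 0.000301). Its rise in CX3 was small (0.17, SE 0.06, adjusted p = 0.0338) and was lost with DESeq2 (adjusted p = 0.0549) and without CTR A, CTR B, CTR C, CX3 B or CX3 C (0.14 to 0.19, adjusted p from 0.0592 to 0.151). The paralog Abcb1b moved the other way, falling by 0.31 in CX3 (adjusted p = 0.0320) and by 0.91 in DAT (adjusted p = 8.46e-06) on the log2 scale. Reads that match both paralogs may be lost from the counts, so these levels are uncertain. Abcb1a also shares 10.1% of its exon bases with Gm42686 on the opposite strand.

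Plvap (ENSMUSG00000034845.6, chromosome 8 from 71497765 to 71511752, minus strand) encodes the protein of the diaphragms of fenestrae and caveolae, which mature barrier capillaries mostly lack. It had 6.31, 6.37 and 6.07 CPM in CTR, 7.87, 8.61 and 6.93 CPM in CX3, and 11.6, 13.2 and 11.5 CPM in DAT, which is 182 to 423 counts in a library. The groups did not overlap, with DAT on top. Plvap rose 1.93-fold in DAT (0.95, SE 0.10, adjusted p = 1.21e-06) and was lower in CX3 than in DAT (-0.63, SE 0.09, adjusted p = 4.47e-05). Its GC content, 60.6%, is above that of 96.9% of the genes tested, and with the GC correction these differences were 0.47 (adjusted p = 0.000597) and -0.25 (adjusted p = 0.0241). The rise in CX3 (0.32, SE 0.10, adjusted p = 0.0249) was lost with the GC correction (0.22, adjusted p = 0.0884), and without CTR A, CTR B, CTR C, CX3 A or CX3 B (0.24 to 0.33, adjusted p from 0.0564 to 0.110).

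Markers of tissues whose capillaries carry fenestrae differed between these groups. The 10 choroid plexus genes summed to 64.0 to 65.7 CPM in CTR, 1526 to 1636 in CX3 and 925 to 1094 in DAT, and 9 of the 10 were higher in each group than in CTR. The 6 pituitary genes summed to 61.4 to 64.0 CPM in CTR, 5.92 to 6.13 in CX3 and 18.4 to 23.5 in DAT, where Prl (prolactin) was at 0 in the 3 libraries. In CX3 and DAT most of the choroid plexus sum came from Ttr (transthyretin). The other 9 genes summed to 43.2 to 46.3 CPM in CTR, 115 to 117 in CX3 and 128 to 133 in DAT. The part of these tissues in the Plvap levels was not tested.

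**Figure D2:**
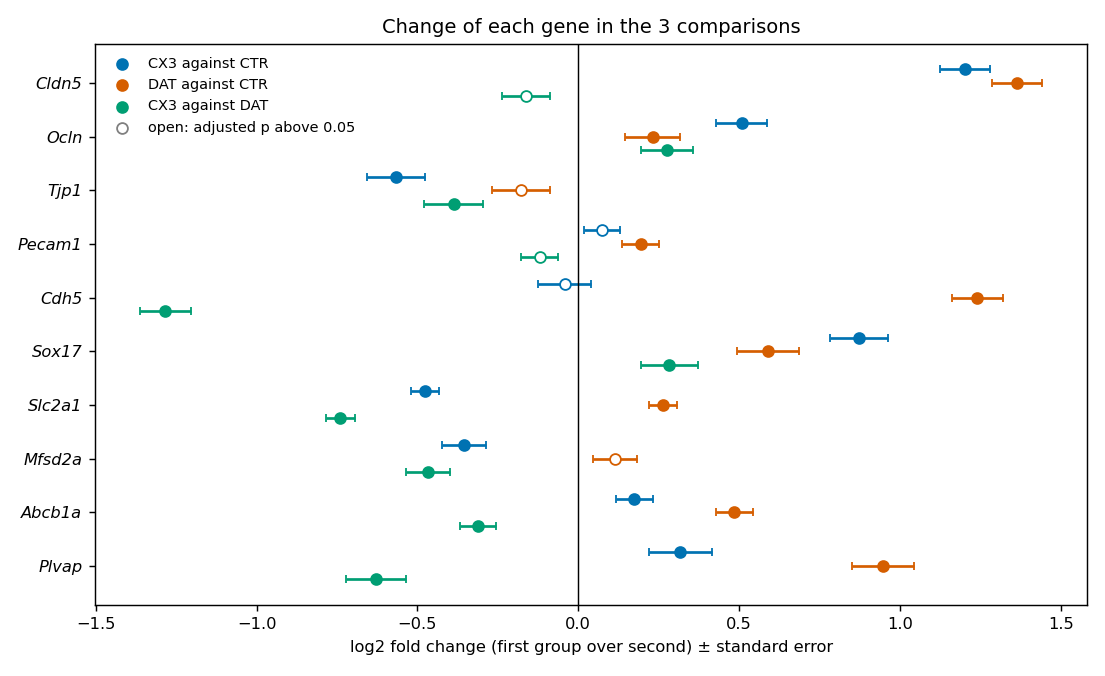
Log2 fold changes of the 10 genes in the 3 comparisons, with standard errors; filled points passed an adjusted p of 0.05. Cldn5 lies at 1.20 and 1.36 against CTR, Cdh5 at -0.04 and 1.24, and Slc2a1 at -0.48 and 0.26.

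Per kilobase of exon, Slc2a1 had the highest level in CTR (35.0 ± 0.355 CPM per kb, mean ± SD, n = 3), followed by Cldn5 (23.1 ± 0.545) and Tjp1 (18.3 ± 0.419). In CX3 and DAT, Cldn5 came first with 53.0 ± 3.67 and 59.5 ± 7.29 CPM per kb, and Slc2a1 followed with 25.1 ± 0.610 and 42.0 ± 1.71. Sox17 was lowest in all 3 groups, with 1.31 ± 0.140, 2.40 ± 0.0438 and 1.97 ± 0.180 CPM per kb. The exon length joins the exons of all transcripts of a gene. It is 4772 bases for Sox17 and 6228 for Pecam1, whose longest transcripts have 3242 and 3441 bases. The order depends on this choice, and transcript length was not tried. Most neighbours in the order were separated in every library. The exceptions in CTR were Mfsd2a and Abcb1a (8.03 ± 0.684 and 7.87 ± 0.290), and Plvap, Cdh5 and Ocln (3.14 ± 0.0808, 3.14 ± 0.219 and 2.92 ± 0.198). Ocln and Plvap overlapped in CX3 (4.15 ± 0.387 and 3.93 ± 0.424), and Cdh5, Pecam1 and Plvap in DAT (7.36 ± 0.758, 6.37 ± 0.341 and 6.09 ± 0.489).

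The other genes of the endothelium and its barrier were described in 6 lists that hold 92 genes, of which 90 were tested. In CX3 against CTR 36 rose and 9 fell, in DAT against CTR 62 rose and 11 fell, and in CX3 against DAT 17 were higher and 54 lower. The genes called thus numbered 45, 73 and 71 of 90, where 30.5%, 59.9% and 58.9% of all genes were called. The median log2 fold changes were 0.14, 0.47 and -0.28. With the GC correction the medians in DAT against CTR and in CX3 against DAT were 0.33 and -0.17, and 44 genes instead of 54 were lower in CX3 than in DAT.

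Of 22 genes of endothelial identity, 17 rose and 1 fell in CX3, with a median of 0.34, and 16 rose and 3 fell in DAT, with a median of 0.83. Clec14a, which encodes an endothelial surface lectin, rose 2.25-fold in CX3 (5.11 ± 0.505 to 11.5 ± 0.385 CPM). Sox18, a transcription factor of the Sox17 family, rose 2.06-fold in CX3 (3.21 ± 0.141 to 6.61 ± 0.447 CPM) and 3.22-fold in DAT (to 10.3 ± 0.819 CPM). Cyyr1 rose 2.02-fold in CX3. Sox7, also of that family, rose 2.68-fold in DAT, and Tie1, an angiopoietin co-receptor, 2.52-fold. These genes were called in both groups. Clec14a and Cyyr1 had log2 fold changes of 1.14 and 1.04 in DAT, and Sox7 and Tie1 had 0.97 and 0.63 in CX3. Flt4, Podxl and Kdr were lower in CX3 than in DAT (-1.04, -0.95 and -0.91); Flt4 and Kdr encode receptors for vascular endothelial growth factors. The 3 that fell in DAT, named after their values were seen, were Ly6c1 (-1.08), Emcn (-0.42) and Fli1 (-0.37).

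Of 12 junction genes, 1 rose and 3 fell in CX3, a share near the 30.5% of all genes called, and 7 rose and 2 fell in DAT. In CX3 Afdn, which encodes the scaffold protein afadin, fell (-0.35), as Tjp1 did, and Esam, an endothelial adhesion molecule, rose (0.31). In DAT, Lsr (angulin-1, of tricellular junctions) and Esam rose (1.00 and 0.62) and Jam3 fell (-0.60). Lsr and Afdn were lower in CX3 than in DAT (-0.70 and -0.62). With the GC correction the values of Lsr were 0.61 in DAT against CTR and -0.37 in CX3 against DAT.

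Of 18 genes in the list of transporters and receptors, 7 rose and 2 fell in CX3, and 12 rose and 3 fell in DAT. The list also holds Spock2, which encodes neither. Tfrc, the transferrin receptor, rose 1.58-fold in CX3 (85.9 ± 2.67 to 135 ± 5.11 CPM). Slco1c1, which carries thyroxine and is also in the astrocyte list, and Slco1a4, an organic anion carrier, rose in CX3 (0.58 and 0.57 on the log2 scale). Tfrc and Slco1c1 also rose in DAT (0.23 and 0.16), where Slco1a4 fell (-0.23). In DAT, Spock2 and Slc38a5 (a glutamine carrier) rose 2.42-fold and 2.28-fold. Spock2 and Slc7a1 (a cationic amino acid transporter) were lower in CX3 than in DAT (-1.15 and -1.04). Spock2 is also expressed in neurons, and the 5 neuron markers, which all rose in DAT, summed to 2952 to 2984 CPM in CTR, 3253 to 3297 in CX3 and 4709 to 4752 in DAT. Without Snap25, the other 4 summed to 1599 to 1605 CPM in CTR, 1481 to 1502 in CX3 and 2486 to 2523 in DAT. The oligodendrocyte markers summed to 19541 to 19626, 20747 to 21136 and 13958 to 14818 CPM, and the microglia markers to 690 to 698, 458 to 463 and 451 to 463 CPM, in the same order of groups. The part of these cells in the values was not tested.

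Of 17 genes of the Wnt pathway that maintains the barrier, 8 rose and 0 fell in CX3, and 13 rose and 0 fell in DAT. Foxq1 and Foxf2, transcription factor genes of brain endothelium and pericytes, rose in CX3 (0.72 and 0.58) and in DAT (1.17 and 0.94). Nkd1, a Wnt target and inhibitor, rose in CX3 (0.57) and in DAT (0.82). Adgra2 (GPR124), the co-receptor for Wnt7 ligands, rose 2.11-fold in DAT (15.5 ± 0.853 to 32.5 ± 3.13 CPM). Lrp5, Adgra2 and Reck, which encodes the partner of Adgra2, were lower in CX3 than in DAT (-0.86, -0.85 and -0.67). With the GC correction Adgra2 had 0.64 and Foxf2 0.51 in DAT against CTR, and Adgra2 -0.50 in CX3 against DAT.

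Of 11 tested genes of endothelial activation and leakage, 3 rose and 2 fell in CX3, and 6 rose and 3 fell in DAT. Apln and Angpt2 rose in CX3 (0.51 and 0.41) and in DAT (0.37 and 0.27), and Cav1 rose in CX3 (0.37). Vwf, the von Willebrand factor gene, was 3.53-fold higher in DAT than in CTR (25.0 ± 0.740 to 88.0 ± 9.88 CPM) and 4.30-fold higher in DAT than in CX3. The 2 that fell in CX3, named after their values were seen, were Vcam1 (-0.29) and Vwf (-0.28). Likewise, the 3 that fell in DAT were Icam1 (-0.72), Vcam1 (-0.62) and Ch25h (-0.57). Ackr1 and Lrg1, both known from venules, rose in DAT (0.89 and 0.81) and were lower in CX3 than in DAT (-0.79 and -0.91). With the GC correction the rise of Lrg1 in DAT was lost (0.24, adjusted p = 0.153), and its difference between CX3 and DAT was -0.49. Of 10 arterial and venous genes, 0 rose and 1 fell in CX3 (Gja5, a connexin of arterial endothelium, -0.55), and 8 rose and 0 fell in DAT. Sema3g, Ephb4 and Gja4 rose in DAT (1.27, 1.14 and 1.06), and Efnb2, Sema3g and Ephb4 were lower in CX3 than in DAT (-1.25, -1.18 and -1.01). Ephb4 and Gja4 had 0.76 and 0.66 in DAT against CTR with the GC correction.

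**Figure D3:**
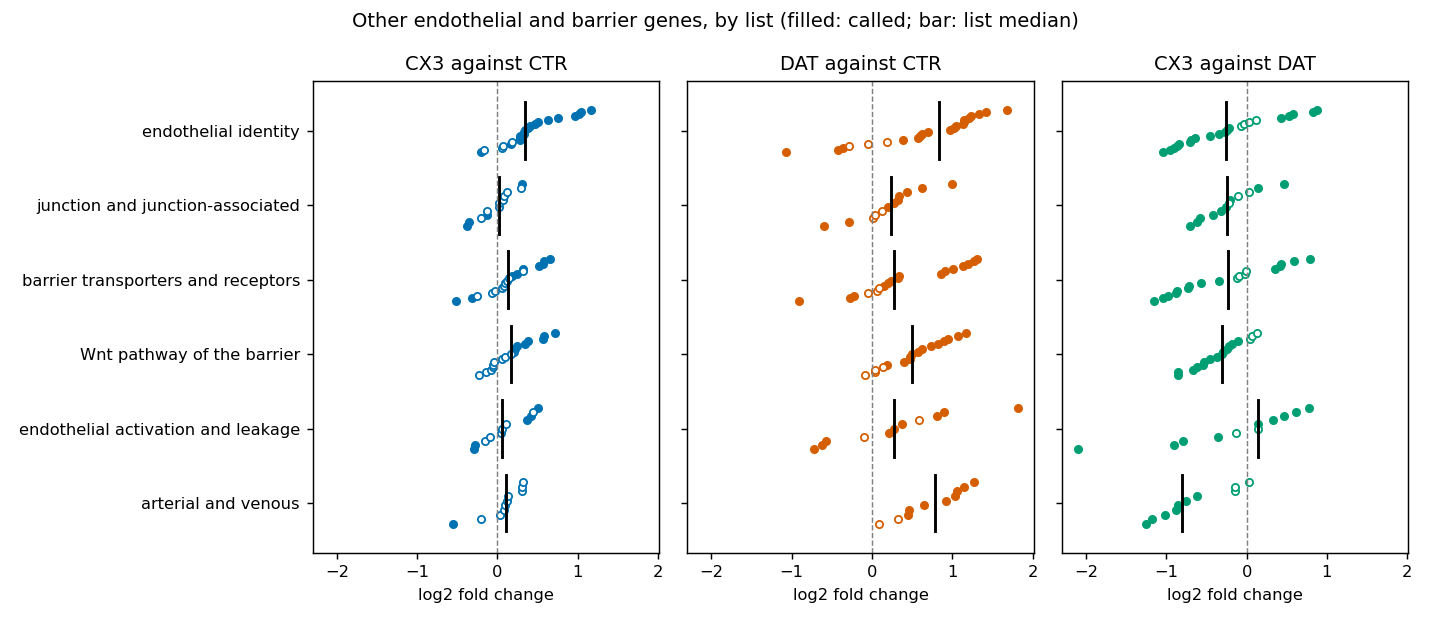
Log2 fold changes of the tested genes of the 6 other lists, a panel for each comparison; filled points were called, and black bars are list medians. The arterial and venous list has its median at 0.11 in CX3 against CTR and at 0.79 in DAT against CTR.

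Of the other cells of the vessel wall, smooth muscle and fibroblast markers were higher in DAT, and the pericyte sum differed less. The 5 tested smooth muscle genes included 4 that rose in DAT, with a summed level of 61.9 to 62.7 CPM in CTR, 69.2 to 73.5 in CX3 and 94.9 to 102 in DAT. The 7 meningeal and perivascular fibroblast genes summed to 229 to 234 CPM in CTR, 207 to 215 in CX3 and 342 to 348 in DAT, and 5 rose in DAT. The 10 pericyte genes summed to 394 to 402, 355 to 370 and 416 to 417 CPM in CTR, CX3 and DAT. They went both ways in DAT, where 6 rose and 2 fell, with log2 fold changes from -1.02 to 1.35. Hemoglobin and other erythrocyte genes, a sign of residual blood, were lower in CX3 (94.5 to 108 CPM) than in CTR (242 to 267 CPM) in 5 of 5 genes, and were 187 to 266 CPM in DAT. Leukocyte genes summed to 127 to 129 CPM in CTR, 117 to 121 in CX3 and 33.9 to 34.5 in DAT. The part of these levels in the endothelial results was not tested, and with manual dissection the amount of vessel and surrounding tissue in each library is not known.

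**Figure D4:**
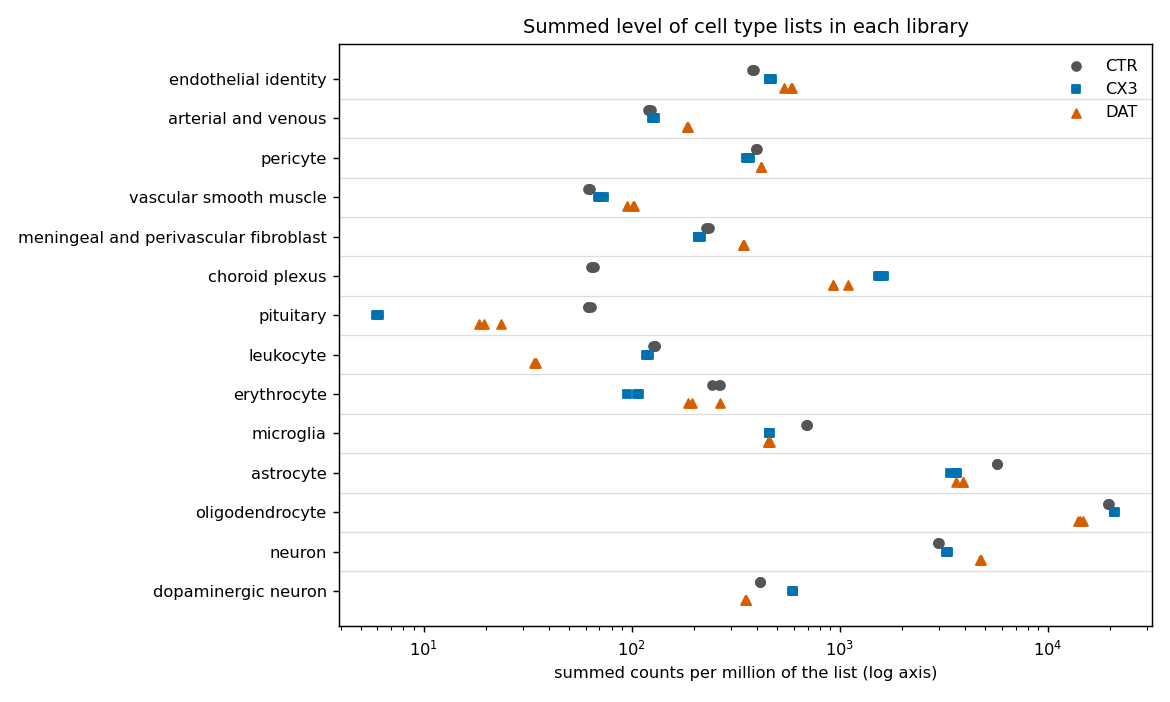
Summed CPM of cell type lists in each library on a log axis, with CTR as circles, CX3 as squares and DAT as triangles. Choroid plexus genes lie at 64.0 to 65.7 CPM in CTR and at 925 to 1636 CPM in the other groups, while leukocyte genes are lowest in DAT at 33.9 to 34.5 CPM.

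To set each gene against other endothelial genes of the same library, its counts were divided by the summed counts of the 22 identity genes, a sum of 10760 to 21524 counts. The largest gene held 13.4% to 19.1% of it, Ly6c1 in CTR and CX3 A and Flt1 in the other libraries. In DAT against CTR the list ran from -1.08 (Ly6c1) to 1.69 (Sox18), so the sum is no direct measure of endothelial content. Per library total, the log2 ratio of this summed level to CTR was 0.27 in CX3 and 0.58 in DAT. With 3 libraries against 3, an exact two-sided permutation test cannot go below p = 0.10, so no difference in this ratio can pass 0.05. Relative to the list, Cldn5 was 1.90-fold higher in CX3 than in CTR (0.93, pooled SD 0.09) and 1.72-fold higher in DAT (0.78, pooled SD 0.17), both at the smallest p. Cdh5 was 1.57-fold higher in DAT (0.65, pooled SD 0.10) and lower in CX3 (-0.32, pooled SD 0.09). Sox17 was 1.52-fold higher in CX3 and had a ratio of 1.00 in DAT (0.00314, pooled SD 0.12, exact permutation p = 1.0).

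Slc2a1, Mfsd2a, Tjp1 and Pecam1 were lower per endothelial list in both groups, with no overlap of libraries. The log2 differences in CX3 against CTR were -0.75, -0.62, -0.84 and -0.20, and in DAT against CTR -0.32, -0.47, -0.77 and -0.39. Ocln was lower in DAT (-0.35, no overlap) and had 0.23 in CX3, where the libraries overlapped with CTR. Abcb1a stayed within 0.10 of the control ratio in both groups (-0.10 in each, exact permutation p = 0.3 in CX3 and 0.2 in DAT). Plvap differed by 0.37 in DAT and had 0.04 in CX3 (exact permutation p = 0.7). These ratios were not corrected for GC content, which is high in Plvap and Cldn5. Per library total with the GC correction, Plvap had 0.47 and Cldn5 0.89 in DAT against CTR. The identity list then had a median of 0.63. The ratio depends on the genes that make up the list, and with the pericyte list as the denominator Cldn5 differed by 1.33 and 1.29 from CTR in CX3 and DAT. A single gene held 44.1% to 55.1% of the pericyte counts, Vtn in CTR and DAT and Rgs5 in CX3. With that list, Mfsd2a, Slc2a1 and Ocln turned to 0.0434, 0.19 and 0.16 in DAT, and Cdh5 turned to 0.0860 in CX3. Pecam1 turned to 0.20 in CX3 and 0.12 in DAT.

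**Figure D5:**
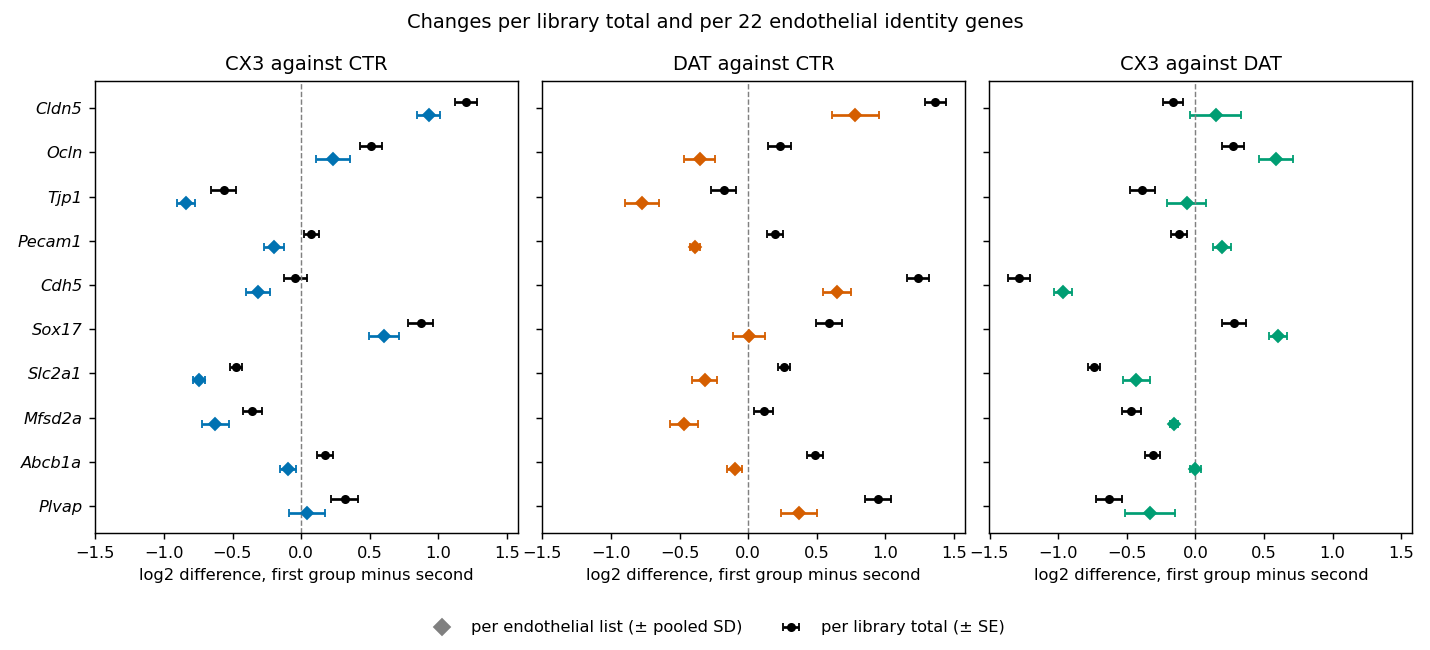
Log2 differences of the 10 genes per library total (black, with SE of the fit) and per summed counts of 22 endothelial identity genes (coloured, with the pooled SD of 3 libraries a group). In DAT against CTR, Cldn5, Cdh5 and Plvap lie above 0 on both scales, while Slc2a1 changes from 0.26 to -0.32. Neither scale is corrected for GC content.

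The genes whose log2 CPM ran closest to those of Cldn5 over the 9 libraries, among genes with a mean of at least 1 CPM, were Pcp4l1, St6galnac6, Gm11613, Hmgcs1 and Sostdc1, with Pearson's r of 0.997, 0.994, 0.993, 0.992 and 0.991. No other member was among them. Their mean levels in CTR, CX3 and DAT were 139, 211 and 226 CPM for Pcp4l1 and 1.06, 6.01 and 6.18 CPM for Sostdc1, a gene also in the choroid plexus list. These are descriptions over 9 libraries that share 3 groups.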

How the data were processed

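RNA of dissected nigral tissue was measured in 9 libraries, and samples were grouped by the line and vector in their labels. The authors deposited raw read counts per gene, without normalization, made with Trimmomatic and STAR on mm10 by the submitters' processing notes, which also name featureCounts and DESeq2; versions are not given in the sources used here. In layout they match the gene count output of STAR. All 55450 gene identifiers belong to GENCODE M21. Rows that name no gene (30.5% to 35.9% of reads) were left out.

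Both strands were pooled, and counts were TMM-scaled and fitted over all 9 libraries with edgeR 4.0.16 (quasi-likelihood, filterByExpr by group, Benjamini-Hochberg over the 20892 genes tested) in R 4.3.3. A gene was called at an adjusted p of 0.05 or less, the SE follows from the F statistic, and an approximate 95% interval is the estimate ± 1.96 SE. The fit was tested on simulated data. Alternatives were DESeq2 1.42.0, other scalings and filters, strands, fewer groups, a replicate block and leaving out each library. A GC correction (a loess curve of span 0.5 per library, used as an offset) was added after the data were seen. Members and lists were chosen with earlier results of these data known. By rule, the text names all members, the 3 genes with the largest called change of each list with a mean of at least 1 CPM, Abcb1b, the first gene of a marker list, and the 5 genes most like Cldn5; 2 list genes that the rule names are not reported here. Of the motifs, the last 2 were added after the windows were read. Python 3.11.15, pandas 2.3.3, scipy 1.17.1 and matplotlib 3.10.9 were used.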

Additional observations from a re-analysis of the deposited data

Results flagged for a closer look

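In 8 members the Cre lines that received the same vector differed by the direct test of CX3 against DAT, in which 58.9% of all genes were called. The log2 differences, CX3 minus DAT, were -1.28 for Cdh5, -0.74 for Slc2a1, -0.63 for Plvap, -0.47 for Mfsd2a, -0.39 for Tjp1, -0.31 for Abcb1a, 0.28 for Sox17 and 0.28 for Ocln. Both groups are set against the same CTR libraries, so this difference is also the contrast of the 2 lines themselves, and tamoxifen differed between them.

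Reads that fell on more than 1 gene, which no comparison uses, made up 4.76% of reads on average in CX3 and 5.46% in DAT, above the 4.34% to 4.41% of the CTR libraries.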

How the results depend on the processing

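With a fold of at least 1.5 as a further condition, members called fell to 2, 4 and 3 and other barrier genes called to 8, 44 and 37 in CX3 against CTR, DAT against CTR and CX3 against DAT, because the condition is stricter; under every other setting tried these counts stayed within 1.5 times the value given. Scaling by library size alone shifted the median of all genes by 0.05, -0.15 and 0.19, and the share of calls that were higher moved from 45.9% to 58.9%, from 53.4% to 37.8% and from 46.8% to 66.7%. Small differences changed sign, and the cause was not tested. With library size alone, Cdh5 in CX3 against CTR became 0.00416, Mfsd2a in DAT against CTR -0.0336, and Cldn5 and Pecam1 in CX3 against DAT 0.0323 and 0.0735. With reverse-strand counts, Mfsd2a in DAT against CTR became -0.0345. With the GC correction, Mfsd2a in DAT against CTR became -0.10 and Cldn5 in CX3 against DAT 0.21. Library size alone ended the calls of Abcb1a and Tjp1 in CX3 against DAT (-0.12 and -0.19) and of Pecam1 and Ocln in DAT against CTR (0.05 and 0.08). These last 2 calls were also lost with the 2 groups fitted alone (0.15 and 0.19) and with reverse-strand counts (0.02 and 0.24), and that of Ocln with forward-strand counts (0.06). Tjp1 in DAT against CTR was called with library size alone (-0.32), without the filter on low counts (-0.17) and with reverse-strand and forward-strand counts (-0.25 and -0.26). Reverse-strand counts ended the call of Plvap (0.27) and forward-strand counts that of Abcb1a (0.19) in CX3 against CTR. With a replicate block, 8 members were called in each comparison, with the call of all 10 unchanged. Libraries with the same letter did not deviate together (correlations from -0.05 to 0.07 for CTR and CX3, -0.03 to 0.10 for CTR and DAT, and -0.33 to 0.11 for CX3 and DAT), so the letters were not taken as pairs.

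With the pericyte list as the denominator, the ratios of CX3 against CTR became 1.33 for Cldn5, 0.20 for Pecam1, 0.0860 for Cdh5, 1.01 for Sox17, -0.22 for Mfsd2a, -0.35 for Slc2a1, 0.30 for Abcb1a, 0.64 for Ocln, -0.44 for Tjp1 and 0.45 for Plvap. Those of DAT against CTR became 1.29, 0.12, 1.16, 0.51, 0.0434, 0.19, 0.41, 0.16, -0.26 and 0.88 in the same order. In CX3 against DAT, Pecam1 became 0.0824, Cdh5 -1.07, Sox17 0.49, Mfsd2a -0.27, Slc2a1 -0.54 and Abcb1a -0.11. The 3 libraries a group and the unknown number of animals limit all tests. Sox17 rests on 168 to 445 counts a library and Plvap on 182 to 423.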
